A study of Mus musculus with 20 samples.

Results

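Polyamine synthesis was followed in mouse liver through 9 genes, several of them known for control at the level of translation: Odc1, Oaz1, Oaz2, Azin1, Amd1, Srm, Sms, Sat1 and Paox. They were chosen by name, and the Ensembl identifiers of the count table were matched to symbols, which found all 9 among its 53028 genes. Male C57BL/6J mice, 8 weeks old by the labels, received intraperitoneal locked nucleic acid (LNA) oligomers at 3 mg/kg on alternate days for 3 injections. The control group of 5 mice received an LNA against GFP, a sequence mice do not carry, and the other 5 received an LNA against SNORA73, the H/ACA small nucleolar RNAs made from introns of Snhg3. Total RNA (transcriptome) and RNA from the polysome fractions of the same lysates (translatome) were sequenced from each liver, which gave 20 libraries in 4 groups of 5 mice. The labels write Snora37 for the targeted RNA where the study writes SNORA73, and the study's methods give an older age for the livers used for polysomes. For those livers the methods also describe cycloheximide, given by tail vein shortly before death in both LNA groups.

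Polyamines are small cations that bind RNA and support translation. Ornithine decarboxylase (Odc1) makes putrescine, AdoMet decarboxylase (Amd1) supplies the aminopropyl group, and spermidine synthase (Srm) and spermine synthase (Sms) add it in turn. Antizyme, the product of Oaz1 and Oaz2, binds ornithine decarboxylase and sends it to the proteasome, and its own synthesis needs a ribosomal frameshift that polyamines favour. Antizyme inhibitor (Azin1), a relative of ornithine decarboxylase without its activity, takes antizyme away, while Sat1 and Paox acetylate and oxidize the longer polyamines back towards putrescine. Ornithine decarboxylase is known in liver as an early response to partial hepatectomy.

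All 20 libraries carried the hepatocyte marker Alb, at 438997 to 1659320 counts, and depth was about 20005400 to 42023400 counts per library for total RNA and 14853000 to 33824700 for polysome RNA. Mitochondrially encoded transcripts took 11.2% to 15.4% of the counts in the total RNA libraries and 1.76% to 3.89% in the polysome libraries. The poly(A)-selected libraries held 0 to 2 counts of Snora73a and 0 to 4 of Snora73b in any library, so they give no check of the knockdown. In bulk liver, fewer cells of a type and less RNA per cell cannot be told apart. Summed markers of sinusoidal endothelial cells were 71.7 to 82.4 CPM in GFP LNA polysome RNA and 87.9 to 98.5 CPM in SNORA73 LNA polysome RNA. These ranges did not overlap, as for 3.23% of single genes, but they did when scaled by library totals alone. In total RNA the endothelial sums overlapped, at 80.3 to 99.4 and 94.7 to 108.6 CPM. The other marker sums overlapped between the LNA groups in both RNAs, such as Kupffer cells in polysome RNA (124.8 to 215.9 and 128.9 to 255.3 CPM). The part of cell types in the values below was not tested. All 9 genes passed the filter on low counts, and the smallest count of any of them in a library was 76, for Sms.

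The clearest contrast was between polysome and total RNA of the same livers. CPM denotes counts divided by library size and scaled by the trimmed mean of M values (TMM), and polysome loading is the log2 ratio of polysome to total CPM, which is relative to the other transcripts of the library. Oaz1, Srm and Paox were higher in polysome RNA and Azin1 was lower in GFP LNA livers, by edgeR at a Benjamini-Hochberg FDR under 0.05. Among 13795 genes tested there, 21.8% were higher and 21% lower, so counts of 3 and 1 among 9 do not set these genes apart from the rest. In SNORA73 LNA livers Oaz1 and Srm were higher and Azin1 was lower, against 19.7% of genes higher and 18.2% lower. When the libraries were paired by mouse, Odc1 was higher as well in both groups and Paox also in SNORA73 LNA livers, which gave 4 higher and 1 lower in each group. The background then was 28.9% higher and 27.2% lower with the GFP LNA, and 26% and 25.1% with the SNORA73 LNA. The median log2 fold change of the 9 genes was 0.17 in GFP LNA and 0.22 in SNORA73 LNA livers, and that of all genes was 0.03 and 0.02. With the mitochondrially encoded genes left out of the fit, 4 and 3 of the 9 genes were called, the same numbers as with them.

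**Figure D1:**
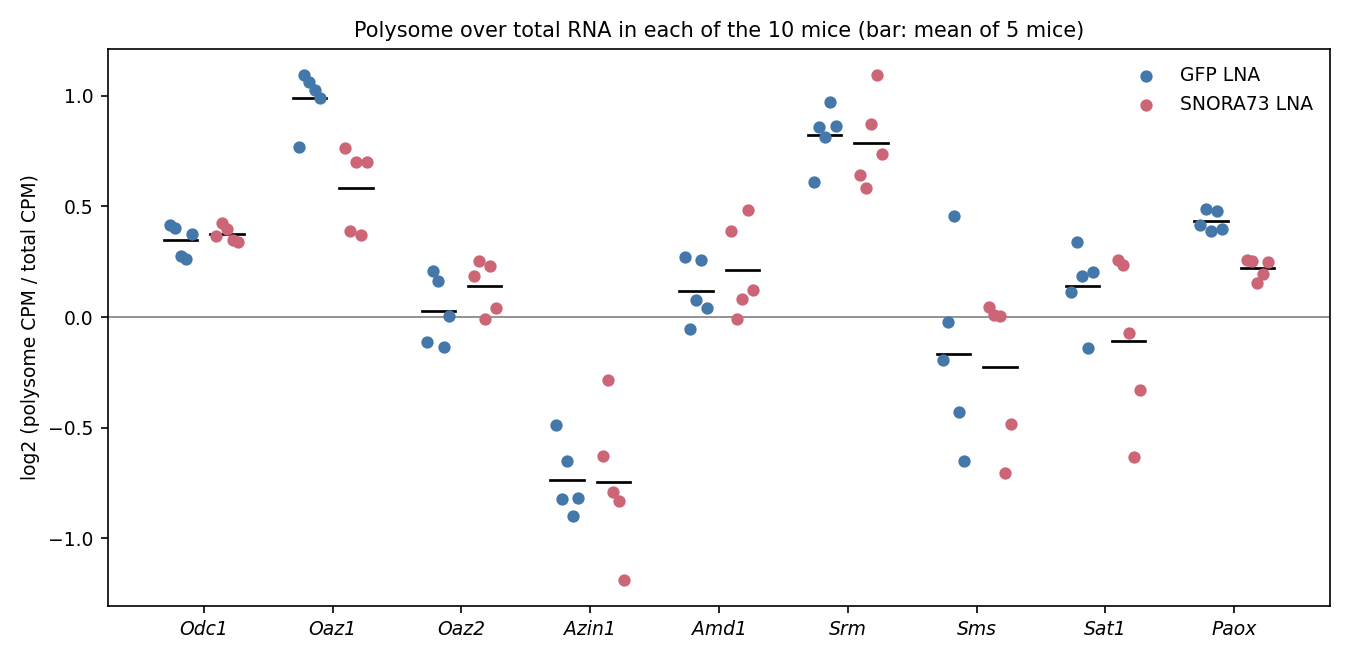
Polysome over total RNA (log2 ratio of CPM, y axis) for each of the 9 genes (x axis) in every mouse, with a bar at the mean of 5 mice. Odc1, Oaz1, Srm and Paox lie above 0 in all 10 mice, Azin1 lies below 0 in all 10, and Oaz2, Amd1, Sms and Sat1 have mice on both sides.

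The sign of polysome loading was the same in all 10 mice for 5 of the 9 genes. It was above 0 in every mouse for Odc1, Oaz1, Srm and Paox, as for 21.1% of all genes, and below 0 in every mouse for Azin1, as for 19.4%. These shares are over 13037 genes that passed the filter and had a count in each of the 20 libraries. The enzyme that opens the pathway, the main antizyme, spermidine synthase and the oxidase thus had positive loading in every liver, and the antizyme inhibitor negative loading.

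Odc1, at chr12:17544808-17551502 on GRCm38.p6, makes the enzyme that commits ornithine to polyamines. In total RNA it stood at 79.7, 48.7, 84.7, 75.3 and 51.9 CPM in GFP LNA mice 1, 2, 3, 8 and 9. In SNORA73 LNA mice 4, 6, 10, 11 and 12 it stood at 69.7, 62.9, 79.7, 51.5 and 70.2 CPM. Mice 2, 9 and 11, from both groups, were low, and the groups overlapped. In polysome RNA the values were 106.3, 64.3, 102.7, 90.3 and 67.3 CPM with the GFP LNA and 89.8, 84.5, 105.0, 65.6 and 88.7 CPM with the SNORA73 LNA, and the same 3 mice were low. Across the 10 mice the log2 CPM of Odc1 in polysome RNA followed that in total RNA with r = 0.98, a description over libraries from the same lysates.

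Loading of Odc1 varied less between mice than the level did. It was 0.42, 0.40, 0.28, 0.26 and 0.38 in the GFP LNA mice and 0.36, 0.43, 0.40, 0.35 and 0.34 in the SNORA73 LNA mice. All 10 values lay above 0 and the groups overlapped. Without pairing, the log2 fold change of polysome over total RNA was 0.34 (SE 0.18) with an adjusted p of 0.134 by edgeR in GFP LNA livers, and 0.38 (SE 0.18) with an adjusted p of 0.105 in SNORA73 LNA livers. Paired by mouse, it was 0.35 (SE 0.064, adjusted p = 0.000311) and 0.38 (SE 0.064, adjusted p = 0.00019).

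Oaz1, at chr10:80826656-80829290, makes the main antizyme, the feedback inhibitor of ornithine decarboxylase. In total RNA it was at 311.9, 314.8, 299.9, 239.3 and 271.5 CPM in GFP LNA mice 1, 2, 3, 8 and 9. The SNORA73 LNA mice 4, 6, 10, 11 and 12 had 301.0, 306.2, 196.5, 346.7 and 268.4 CPM. Mouse 10 was lowest and mouse 11 highest of all 10, so the SNORA73 LNA group spanned the control group. In polysome RNA it was at 530.9, 671.0, 626.6, 487.3 and 538.9 CPM with the GFP LNA and at 510.8, 400.9, 319.6, 448.1 and 435.3 CPM with the SNORA73 LNA. Only mouse 4 of the SNORA73 LNA group reached into the control range.

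Oaz1 had the largest positive polysome loading of the 9 genes in GFP LNA livers. Its log2 fold change over total RNA was 0.99 (SE 0.15), a 1.99-fold difference with an adjusted p of 1.9e-05 by edgeR. In SNORA73 LNA livers it was 0.58 (SE 0.15), a 1.49-fold difference with an adjusted p of 0.0038. Counts of the processed copy Oaz1-ps ranged from 42 to 1163 per library, and the assignment of reads between it and Oaz1 is uncertain, but adding its counts left both calls in place, at 0.999 and 0.58.

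Per mouse, Oaz1 loading was 0.77, 1.09, 1.06, 1.03 and 0.99 in the GFP LNA livers and 0.76, 0.39, 0.70, 0.37 and 0.70 in the SNORA73 LNA livers. The groups did not overlap, by less than 0.01 between mouse 1 and mouse 4, and under scaling by library totals they overlapped, with mice of the control group from 0.76 and of the SNORA73 LNA group up to 0.91. Groups were free of overlap for 1.76% of 13037 genes, and among the 9 genes for Oaz1 and Paox. The difference in loading between the LNA groups was -0.41 (95% interval -0.84 to 0.02) without pairing, with an adjusted p of 0.9999 by edgeR. Paired by mouse it was -0.40 (SE 0.11, 95% interval -0.64 to -0.17), with an unadjusted p of 0.00253 and an adjusted p of 0.367, so it did not pass.

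Oaz2, at chr9:65676548-65690300, makes a second antizyme of wide tissue distribution. Over all 10 mice it ranged between 21.0 and 28.2 CPM in total RNA and between 20.9 and 30.3 CPM in polysome RNA, the smallest ratio of highest to lowest among the 9 genes in both. Its loading was -0.11, 0.21, 0.16, -0.13 and 0.00 in the GFP LNA mice and 0.19, 0.25, -0.01, 0.23 and 0.04 in the SNORA73 LNA mice, with values on both sides of 0 in each group. Its log2 fold change of polysome over total RNA was 0.04 (95% interval -0.19 to 0.27) and 0.14 (95% interval -0.09 to 0.38). The 2 antizyme genes thus stood apart in loading as values, and that difference was not tested.

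Azin1, at chr15:38487430-38519294, makes the antizyme inhibitor. In total RNA it was at 66.5, 66.2, 65.6, 87.9 and 92.8 CPM in GFP LNA mice 1, 2, 3, 8 and 9, of which the last 2 were high. The SNORA73 LNA mice 4, 6, 10, 11 and 12 had 58.7, 63.2, 70.8, 69.7 and 80.0 CPM. In polysome RNA the levels were 47.4, 37.4, 41.9, 47.2 and 52.7 CPM with the GFP LNA and 37.9, 51.9, 40.9, 39.2 and 35.1 CPM with the SNORA73 LNA. No polysome library reached the lowest total RNA library in either LNA group, and the LNA groups overlapped in both RNAs. The share of all genes with the 2 RNAs so separated was not computed, but 19.4% had loading below 0 in every mouse.

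Azin1 was the only one of the 9 genes called lower in polysome RNA. The log2 fold change was -0.74 (SE 0.13) in both LNA groups, with an adjusted p of 0.000157 in GFP LNA and 0.000201 in SNORA73 LNA livers by edgeR, or 0.598-fold and 0.599-fold. Loading per mouse ran from -0.90 to -0.49 with the GFP LNA and from -1.19 to -0.29 with the SNORA73 LNA. Mouse 12 was lowest and mouse 6 was nearest to 0. The levels in the 2 RNAs were only loosely related over the 10 mice, with r = 0.31.

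Within a library, the count of Azin1 relative to that of Oaz1 gives the balance of inhibitor and antizyme transcripts in a form that no scaling alters. In total RNA the log2 ratio was -1.93 ± 0.40 (SD, n = 5) with the GFP LNA and -2.03 ± 0.40 with the SNORA73 LNA. In polysome RNA it was -3.65 ± 0.36 and -3.36 ± 0.38, and the 2 RNAs did not overlap in either group. That shift follows from the loading of the 2 genes given above. The share of gene pairs that separate this way was not computed. Azin1 relative to Odc1 went from 0.18 ± 0.50 in total to -0.91 ± 0.37 in polysome RNA with the GFP LNA, and from 0.04 ± 0.28 to -1.08 ± 0.33 with the SNORA73 LNA. Odc1 relative to Oaz1 was -2.11 ± 0.42 and -2.75 ± 0.44 with the GFP LNA, against -2.08 ± 0.53 and -2.28 ± 0.43 with the SNORA73 LNA. These ratios are descriptions with no test, and since they compare counts of genes of unlike length their size says nothing of which transcript is more abundant.

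Amd1, at chr10:40287458-40302188 on the minus strand, makes AdoMet decarboxylase. Its leader is the textbook case of a short upstream reading frame through which polyamines hold back translation, and it is shown because the start window of the gene contains it whole. The RefSeq windows cover 50 transcribed bases of each gene and were present for 7 of the 9 genes, all but Azin1 and Srm. A frame of ATG to a stop codon (TAA, TAG or TGA) that lay wholly in those 50 bases on the transcribed strand was found for Amd1 alone of the 7, and in 11.7% of all 32851 windows. It spans chr10:40302155-40302175, bases 14 to 34 of the transcript, with 6 codons before the stop, and the near-identical gene Amd2 carries the same letters at chr10:35711860-35711880. Start and stop codons are in capitals.
Amd1: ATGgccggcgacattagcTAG

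In total RNA Amd1 stood at 56.3, 66.8, 57.0, 52.4 and 60.9 CPM in GFP LNA mice 1, 2, 3, 8 and 9 and at 58.1, 66.0, 53.5, 72.5 and 60.4 CPM in SNORA73 LNA mice 4, 6, 10, 11 and 12. In polysome RNA it stood at 68.0, 64.4, 60.0, 62.7 and 62.7 CPM with the GFP LNA and at 76.1, 65.6, 56.6, 101.4 and 65.8 CPM with the SNORA73 LNA. Mouse 11 was the highest in both RNAs, and the groups overlapped. The difference between polysome and total RNA did not pass, at 0.12 (95% interval -0.15 to 0.38) in GFP LNA and 0.23 (95% interval -0.03 to 0.50) in SNORA73 LNA livers. Paired by mouse the second value was 0.21 (SE 0.086) with an adjusted p of 0.0505 by edgeR, so close to the threshold that the call turned on the setting. In that paired fit Amd1 was called higher under scaling by library totals (0.24, adjusted p = 0.0316) and without mouse 6 (0.27, adjusted p = 0.0188). It was also called with limma-voom (0.21, adjusted p = 0.0432) and with the counts of Amd2 added (0.30, adjusted p = 0.0131). It was not called without any of the other 9 mice in turn or with DESeq2, with adjusted p of up to 0.187 when a mouse was left out. Amd2 had 24 to 232 counts per library, and reads shared with it are uncertain.

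Srm, at chr4:148591513-148594619, makes spermidine synthase, and Sms, at chrX:157443851-157492287, makes spermine synthase. Srm was at 10.4, 5.82, 11.6, 10.3 and 6.27 CPM in total RNA of GFP LNA mice 1, 2, 3, 8 and 9 and at 13.0, 8.98, 11.6, 5.26 and 7.61 CPM in SNORA73 LNA mice 4, 6, 10, 11 and 12. In polysome RNA it was at 15.9, 10.5, 20.3, 20.3 and 11.4 CPM with the GFP LNA and at 20.3, 13.4, 21.3, 11.2 and 12.7 CPM with the SNORA73 LNA. Mice 2, 9 and 11 were the 3 lowest in both RNAs, as they were for Odc1.

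Loading of Srm was above 0 in all 10 mice, from 0.61 to 0.97 with the GFP LNA and from 0.58 to 1.10 with the SNORA73 LNA. The log2 fold change of polysome over total RNA was 0.82 (SE 0.26, adjusted p = 0.0147 by edgeR) in GFP LNA livers, or 1.77-fold. In SNORA73 LNA livers it was 0.77 (SE 0.26, adjusted p = 0.0257), or 1.70-fold. Without pairing, that call was lost without mouse 10 (0.72, adjusted p = 0.0627) or mouse 12 (0.76, adjusted p = 0.0645) and in the 8 mice without mice 9 and 10 (0.72, adjusted p = 0.0527). Paired by mouse it was 0.78 (SE 0.090, adjusted p = 6.87e-06 by edgeR), and the call held with each of the 10 mice left out, at an adjusted p of at most 8.52e-05, and in those 8 mice (0.74, adjusted p = 0.000221).

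Sms showed no such direction. Its levels lay between 5.86 and 10.7 CPM in total RNA and between 5.01 and 10.1 CPM in polysome RNA, and its loading from -0.65 to 0.46 with the GFP LNA and from -0.70 to 0.04 with the SNORA73 LNA. The log2 fold change of polysome over total RNA was -0.14 (95% interval -0.57 to 0.28) and -0.22 (95% interval -0.66 to 0.22). The log2 count ratio of Sms to Srm went from 0.08 ± 0.56 in total to -0.91 ± 0.50 in polysome RNA with the GFP LNA, and from -0.21 ± 0.73 to -1.22 ± 0.38 with the SNORA73 LNA.

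Sat1, at chrX:155213126-155216449, acetylates spermidine and spermine, and Paox, at chr7:140115735-140134334, oxidizes the acetylated forms, so that together they run the pathway backwards. Sat1 was at 58.4, 67.6, 58.7, 51.0 and 127.0 CPM in total RNA of GFP LNA mice 1, 2, 3, 8 and 9 and at 53.1, 51.3, 57.5, 56.8 and 56.6 CPM in SNORA73 LNA mice 4, 6, 10, 11 and 12. In polysome RNA it was at 63.3, 85.6, 66.7, 46.3 and 146.0 CPM with the GFP LNA and at 63.4, 60.4, 54.6, 36.6 and 45.1 CPM with the SNORA73 LNA. Mouse 9 was highest in both RNAs, and all other libraries lay between 36.6 and 85.6 CPM. The difference between polysome and total RNA did not pass, at 0.17 (95% interval -0.37 to 0.71) in GFP LNA and -0.08 (95% interval -0.62 to 0.46) in SNORA73 LNA livers.

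Paox was at 36.2, 43.2, 44.6, 45.8 and 42.5 CPM in total RNA of GFP LNA mice 1, 2, 3, 8 and 9 and at 49.5, 55.6, 42.0, 47.9 and 59.4 CPM in SNORA73 LNA mice 4, 6, 10, 11 and 12. In polysome RNA it was at 48.3, 60.7, 58.3, 63.9 and 56.0 CPM with the GFP LNA and at 59.1, 66.2, 46.7, 54.8 and 70.5 CPM with the SNORA73 LNA. All SNORA73 LNA mice but mouse 10 lay above the control range in total RNA, while the groups were mixed in polysome RNA.

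Loading of Paox was 0.41, 0.49, 0.39, 0.48 and 0.40 in the GFP LNA mice and 0.26, 0.25, 0.15, 0.20 and 0.25 in the SNORA73 LNA mice, 2 sets that did not overlap, although they did under scaling by library totals. Polysome over total RNA was 0.44 (SE 0.12, adjusted p = 0.00592 by edgeR) with the GFP LNA. It was 0.22 (SE 0.12, adjusted p = 0.149) with the SNORA73 LNA, and 0.22 (SE 0.064, adjusted p = 0.00997) when paired by mouse. The difference in loading between the LNA groups was -0.21 (95% interval -0.56 to 0.14, adjusted p = 0.9999 by edgeR), and paired by mouse -0.21 (95% interval -0.41 to -0.02, unadjusted p = 0.0338, adjusted p = 0.589), which did not pass.

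**Figure D2:**
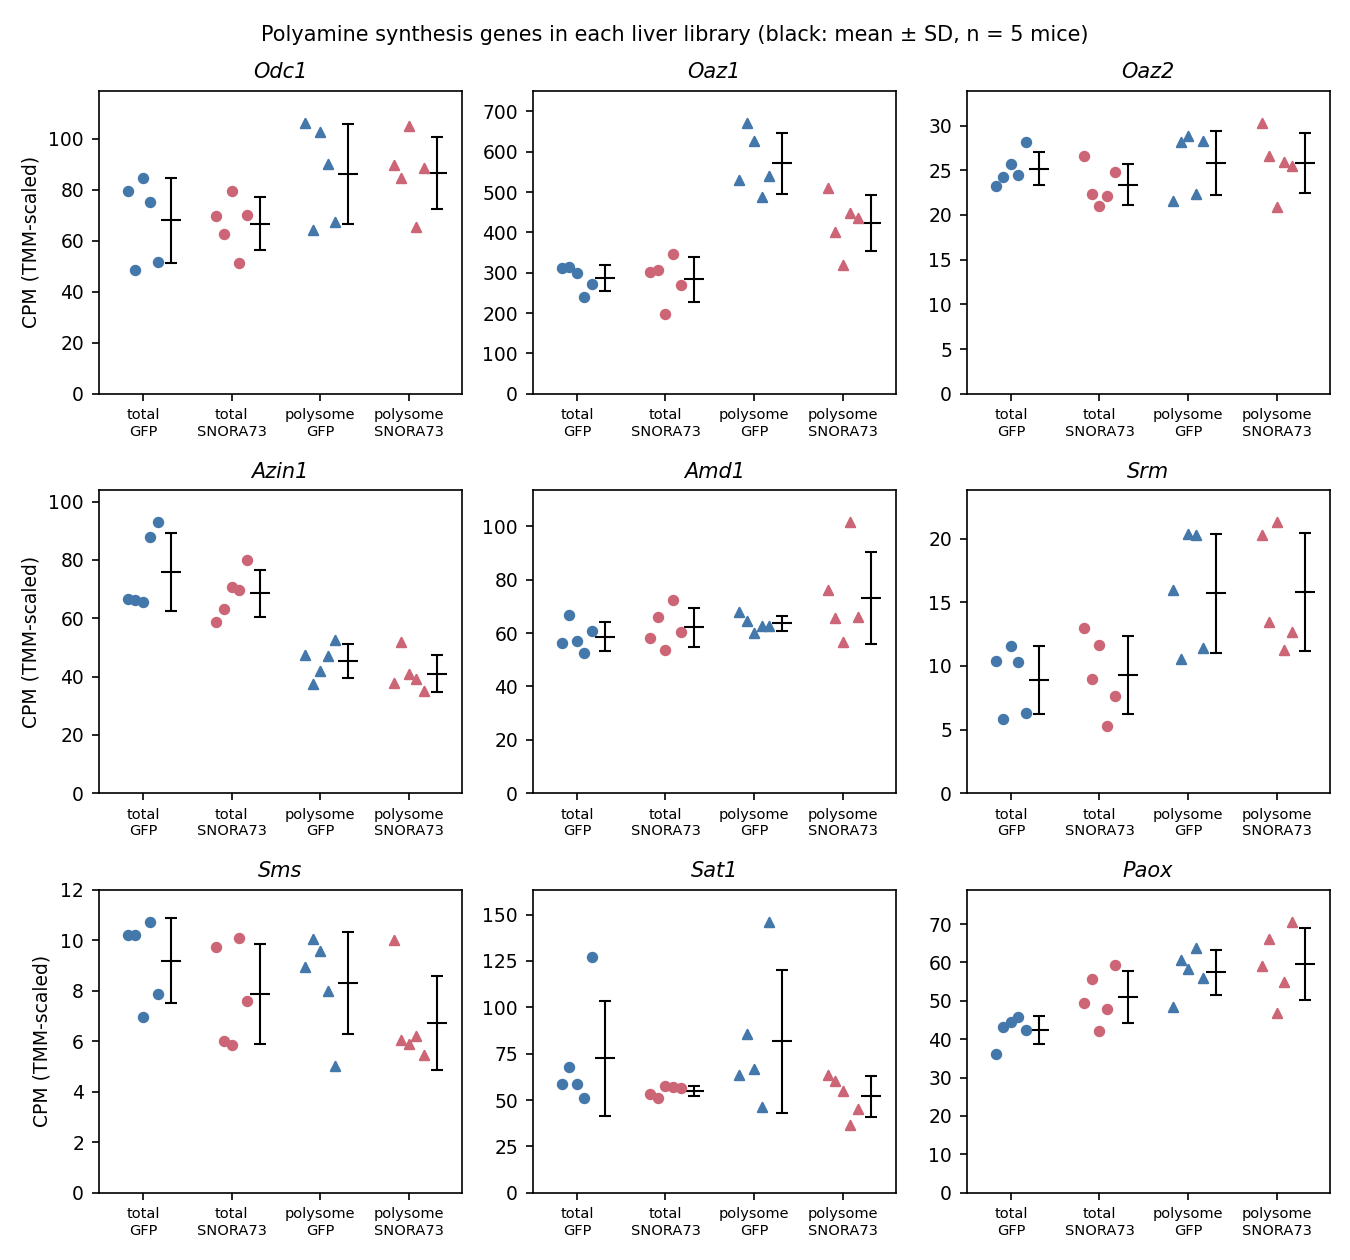
CPM of the 9 genes (y axes, from 0) in total RNA (circles) and polysome RNA (triangles) of GFP LNA and SNORA73 LNA livers (x axes), with the mean ± SD of 5 mice in black. The means of Odc1, Oaz1, Srm and Paox sit higher and that of Azin1 lower in polysome RNA, and Sat1 of mouse 9 stands above the others at 127.0 and 146.0 CPM.

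The LNA groups were compared next, to ask whether loss of SNORA73 altered the abundance of these transcripts or their presence on polysomes. By edgeR, 0 of 9 genes passed in total RNA and 0 in polysome RNA, against 0.0303% of 13195 and 0.0153% of 13060 genes. DESeq2 and limma-voom also called 0 in each. At an unadjusted p under 0.05 there was 1 gene in total RNA, Paox, at 0.26 (SE 0.11, adjusted p = 0.509), and 1141 among all genes. There were 2 in polysome RNA, against 1755 among all genes. Oaz1 had a log2 fold change of -0.44 (SE 0.15, 95% interval -0.77 to -0.11, adjusted p = 0.254), and Sat1 one of -0.65 (SE 0.26, 95% interval -1.22 to -0.08, adjusted p = 0.314). For Sat1 mouse 9 set the size, and without that mouse the value was -0.33 in polysome RNA and -0.11 in total RNA, where it had been -0.40. For Oaz1 it stayed between -0.52 and -0.34 when any 1 mouse was left out.

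The CPM of the LNA groups overlapped for 9 of 9 genes in both RNAs, whereas 1.84% of genes in total RNA and 3.23% in polysome RNA had groups without overlap. The 95% intervals bound what these 5 mice per group could have missed. For Odc1 they were -0.40 to 0.35 in total RNA and -0.37 to 0.38 in polysome RNA, around values of -0.02 and 0.01. For Azin1 the values were -0.15 in both RNAs, with intervals from -0.43 to 0.14 in each. Amd1 had 0.08 (95% interval -0.14 to 0.30) in total RNA and 0.20 (95% interval -0.13 to 0.52) in polysome RNA, and 0.07 in polysome RNA without mouse 11. Srm had 0.06 (95% interval -0.49 to 0.62) and 0.00 (95% interval -0.51 to 0.51), the widest span of these 4 genes.

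In the change of polysome loading with the SNORA73 LNA, 0 of 9 genes passed, against 0.00725% of 13795 genes. No gene of the 9 and 401 of all genes had an unadjusted p under 0.05. Paired by mouse, again 0 of 9 passed and 0.00725% of all genes did, and Oaz1 and Paox had the unadjusted values given above. Scaling by library totals instead of TMM shifted the median difference between the LNA groups over all genes (log2) to -0.14 in total and -0.17 in polysome RNA. It turned the sign of Amd1 and Srm in total RNA and of Odc1, Srm and Paox in polysome RNA, none of them called, and no call between the LNA groups came or went with it.

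**Figure D3:**
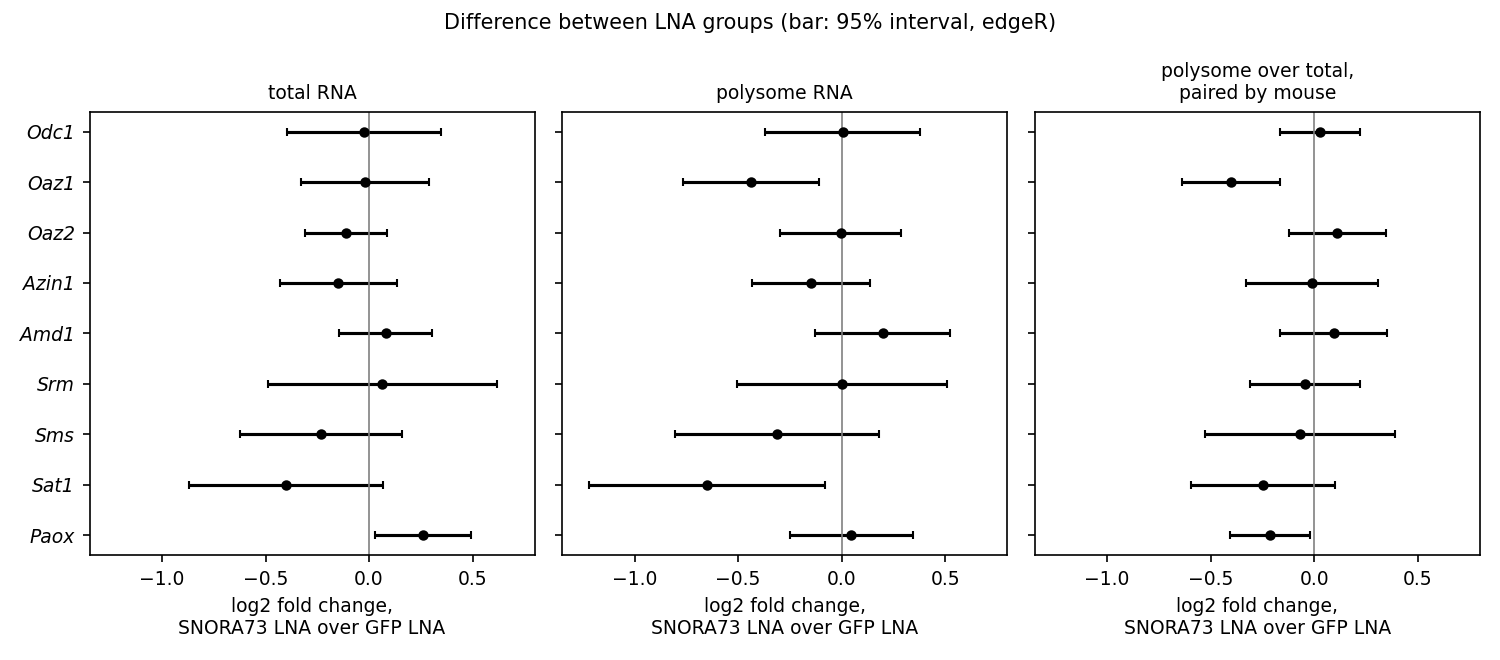
Log2 fold change of SNORA73 LNA over GFP LNA livers (x axes) for the 9 genes (y axis) in total RNA, in polysome RNA and in polysome over total RNA paired by mouse, with 95% intervals by edgeR. The interval of Oaz1 lies below 0 in polysome RNA (-0.77 to -0.11) and in the paired ratio (-0.64 to -0.17). That of Sat1 lies below 0 in polysome RNA (-1.22 to -0.08). That of Paox lies above 0 in total RNA (0.03 to 0.49) and below 0 in the paired ratio (-0.41 to -0.02). None of the genes passed an FDR of 0.05.

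Odc1 and Srm moved together from mouse to mouse. Of 13194 other genes, the 3 whose log2 CPM was most like that of Odc1 over the 10 total RNA libraries were Nans (r = 0.92), which makes sialic acid, the mitochondrial ribosomal protein gene Mrps18b (r = 0.90), and Srm (r = 0.89). In polysome RNA their r was 0.49, 0.70 and 0.83. For Srm, Spearman's rho was 0.77 in total and 0.87 in polysome RNA, and r was 0.77 and 0.70 without the 2 mice farthest from the median of Odc1. No p-value is given because the genes were picked for their likeness, and the points share libraries and depth. Of the 36 pairs among the 9 genes, Odc1 with Srm was the only pair with an r of at least 0.7 in both RNAs. Odc1 and Amd1 ran opposite in total RNA (r = -0.81, rho = -0.85, and r = -0.65 without those 2 mice). In polysome RNA they did so weakly (r = -0.46, rho = -0.27), and hardly without those 2 mice (r = -0.16).

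**Figure D4:**
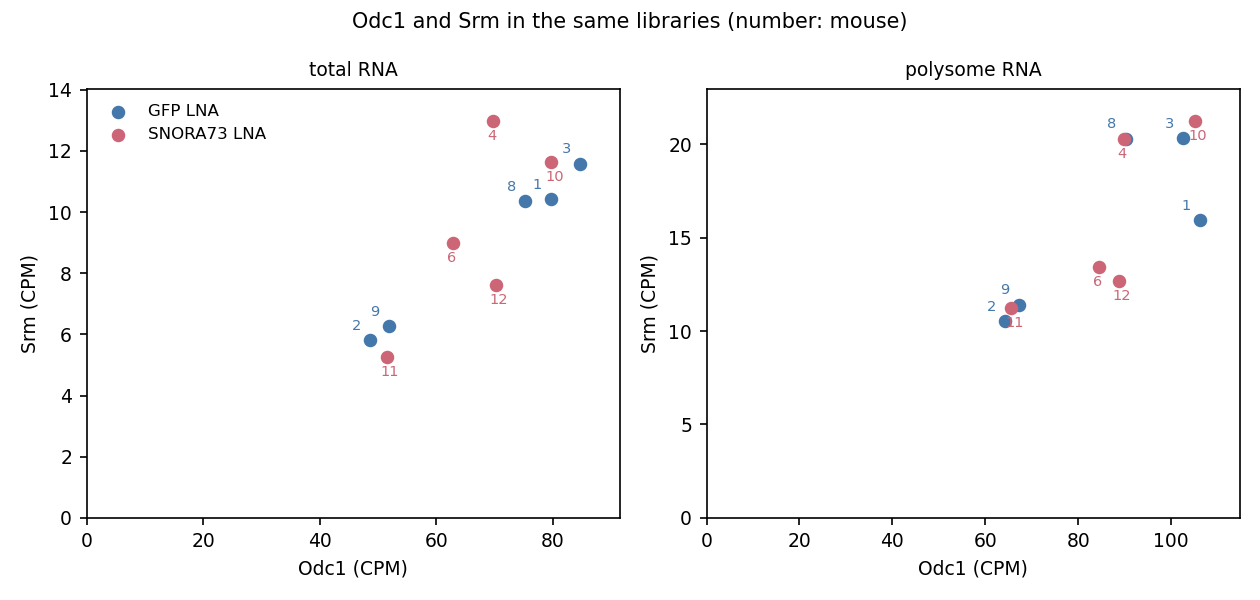
Srm (y axes) against Odc1 (x axes) in CPM, in total and polysome RNA of the 10 mice, numbered and coloured by LNA. Mice 2, 9 and 11 are lowest for both genes in both RNAs, and mice of the LNA groups are interspersed.

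The rest of the pathway was read from a list of 34 genes. In total and polysome RNA 28 of them were tested between the LNA groups and 0 passed in either, beside 0.0303% and 0.0153% of all genes. At an unadjusted p under 0.05 by edgeR there were 0 and 5, beside 1141 of 13195 and 1755 of 13060 genes. Between polysome and total RNA 29 were tested, of which 10 were higher and 5 lower in GFP LNA livers, beside 21.8% and 21% of all genes, and 12 higher and 7 lower in SNORA73 LNA livers, beside 19.7% and 18.2%. Paired by mouse, these became 11 higher and 10 lower, beside 28.9% and 27.2% of all genes, and 12 higher and 10 lower, beside 26% and 25.1%. The list was not tested against other genes. In the change of loading 0 of 29 passed, paired or not, beside 0.00725% of all genes in each.

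The machinery that turns spermidine into hypusine, the modified lysine of the translation factor eIF5A, was higher in polysome RNA for 3 of 3 genes tested in both groups, where 21.8% and 19.7% of all genes were higher. So few genes describe themselves only, and the group was not tested. With the GFP and SNORA73 LNA, the factor itself, Eif5a, was at 0.62 and 0.52. Deoxyhypusine synthase, Dhps, was at 0.51 and 0.36, and deoxyhypusine hydroxylase, Dohh, was at 0.85 and 0.48. Their adjusted p by edgeR lay between 2.19e-05 and 0.0268.

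The 8 genes of AdoMet supply and methionine salvage were split, as all genes were. In GFP LNA livers 2 were higher and 3 lower, beside 21.8% and 21% of all genes. In SNORA73 LNA livers 3 were higher and 3 lower, beside 19.7% and 18.2%. Lower were Mat2a (-0.98 and -0.91) and Mat2b (-0.60 and -0.76), the catalytic and regulatory subunits of the AdoMet synthetase that prevails outside adult hepatocytes, and Mtap (-0.40 and -0.52), which recovers methylthioadenosine left by spermidine and spermine synthesis. Higher in both were Apip (0.78 and 0.66) and Mri1 (0.71 and 0.74), later steps of that salvage. Mat1a, the hepatocyte AdoMet synthetase, was at 0.67 (adjusted p = 0.0907) and 1.09 (adjusted p = 0.00959) by edgeR.

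Of 4 ornithine and arginine genes tested, Otc, which takes ornithine into the urea cycle, was lower in both groups (-0.53 and -0.47), and Agmat, which makes putrescine from agmatine, was higher (0.65 and 0.46). Arginase, Arg1, and ornithine aminotransferase, Oat, passed as lower with the SNORA73 LNA (-0.45 and -0.77) and stood at -0.33 and -0.35 with the GFP LNA, where they did not pass unless paired by mouse. Among 8 transport genes Atp13a3, a polyamine transporter, had the lowest value of the list (-1.37 and -1.28), and its relative Atp13a2, the lysosomal polyamine exporter, was higher (0.86 and 0.68). Of the other catabolic genes, the acetylpolyamine deacetylase Hdac10 was higher in both (0.88 and 0.43), and spermine oxidase, Smox, stood at 0.12 and 0.25 and did not pass. Among relatives of the 9 genes, Sat2 (0.61 in each) and Amd2 (1.01 and 1.86) were higher, Azin2 (0.43 and -0.19) did not pass, and Oaz3 and Satl1 were below the filter. Myc, which drives Odc1 transcription, stood at -0.36 and -0.48, and passed as lower when paired by mouse (-0.39 and -0.62).

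**Figure D5:**
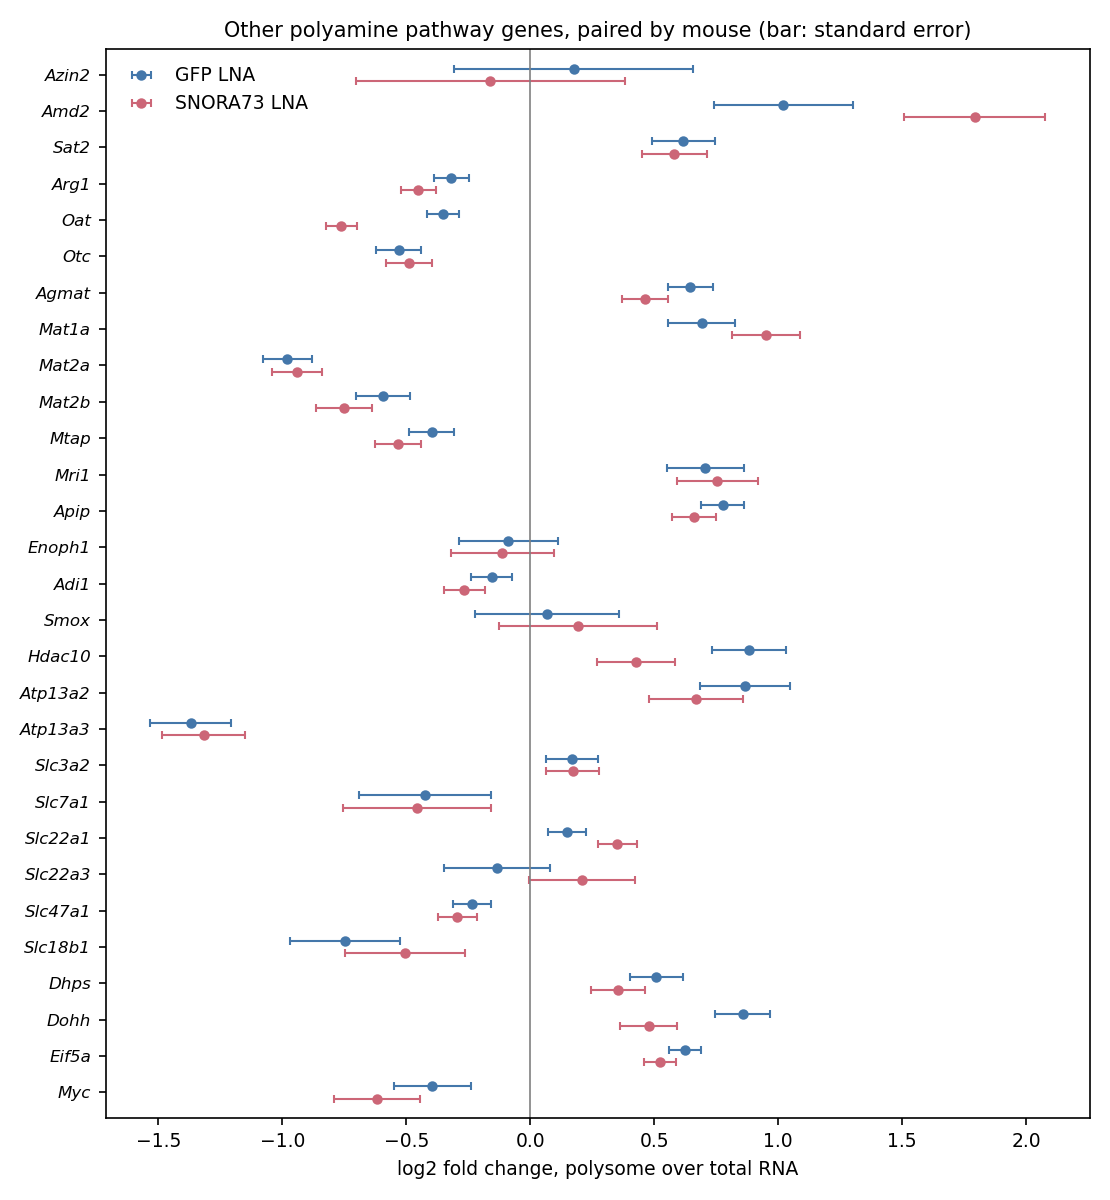
Log2 fold change of polysome over total RNA (x axis) for the 29 tested genes of the wider polyamine pathway (y axis) in GFP LNA and SNORA73 LNA livers, paired by mouse, with standard errors by edgeR. Eif5a, Dhps and Dohh lie above 0 in both groups, and Atp13a3 and Mat2a lie lowest.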

How the data were processed

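Total RNA and polysome RNA from the livers of 10 mice, 5 per LNA, were sequenced as poly(A)-selected libraries with paired 100 bp reads. The table the authors deposited holds estimated counts for each gene. They filtered reads at a Phred score of 15 with fastp, removed rRNA reads with bowtie, estimated counts with kallisto 0.46.2 against Ensembl 102, and summed them per gene with tximport. kallisto divides reads among compatible transcripts, so counts of near-identical copies are uncertain.

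Here the counts were rounded, genes were kept if 4 or more libraries of a fit had a CPM over 0.5, and edgeR 4.0.16 (R 4.3.3) was run with TMM factors and the quasi-likelihood test. The LNA groups were compared in total and polysome RNA apart, and polysome loading and its change in 1 fit of all 20 libraries. p-values were adjusted by Benjamini-Hochberg over all genes tested. Alternatives included limma-voom (limma 3.58.1) and DESeq2 1.42.0. Columns were matched to mice by the labels, and symbols to 51903 of 53028 identifiers. Positions and start windows are from RefSeq on GRCm38.p6.

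The numbers in the labels were taken to name the animal, and libraries were paired by them. Deviations of the same number in both RNAs correlated at 0.10 to 0.51. Within its LNA group, total RNA matched best with polysome RNA of the same number for 9 of 10 mice. The named genes were the 9 genes, up to 6 called genes per comparison and the relatives of members from a pathway list, and the 3 genes most like Odc1, and further pathway genes were named after their values were seen. The 9 genes and all lists were chosen with earlier results of these data known. The study left out 1 mouse per group without naming it, and mice 9 and 10 were taken as that choice from an earlier analysis. The unpaired tests were run on simulated counts in which 200 genes were changed by 1 (log2), and the paired fit was not. Counts of the 2 RNAs of a mouse were drawn independently. Between the LNA groups, 73.5% of the changed genes were recovered in total and 69% in polysome RNA. Between polysome and total RNA, 80% were recovered with the GFP LNA and 81.5% with the SNORA73 LNA. For the change in loading, 41% were recovered.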

Additional observations from a re-analysis of the deposited data

Results flagged for a closer look

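In each group of 5 mice, the CPM of the 9 genes in each RNA and their polysome loading were examined for a mouse far from the other 4, which chance alone flags in about 1 of 20 groups. Of 54 groups, 2 were flagged. Sat1 in total RNA of GFP LNA mouse 9 was at 127.0 CPM, and the next mouse was at 67.6 CPM, a gap of 0.781 of the range. Sms in polysome RNA of SNORA73 LNA mouse 4 was at 10.02 CPM, and the next mouse was at 6.19 CPM, a gap of 0.837 of the range.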

How the results depend on the processing

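Of 928 values of the 9 genes under the alternatives, 857 kept their direction and their side of the threshold. A further 65 changed sign without a call before or after, 3 lost a call and 3 gained one. The 3 lost calls were those of Srm in SNORA73 LNA livers given above, which held when paired by mouse, and the 3 gained were those of Odc1 and Paox with the mouse as a replicate block. That block raised the genes called between polysome and total RNA from 4 to 5 in GFP LNA and from 3 to 5 in SNORA73 LNA livers. It changed no other call among the 9 genes. Over all genes the shares rose as well, from 21.8% higher and 21% lower to 28.9% and 27.2% with the GFP LNA. With the SNORA73 LNA they rose from 19.7% and 18.2% to 26% and 25.1%. Within the paired fit, the call of Amd1 in SNORA73 LNA livers depended on the setting, as given above. No call in the comparisons of LNA groups came with any tool, scaling, filter or mouse left out. In the 8 mice without mice 9 and 10, chosen as the study's selection, 0 of 9 genes passed between the LNA groups. Over the whole table, total RNA had 97 calls among 13017 genes (0.745%), and polysome RNA had 31 among 12825 (0.242%). With all 10 mice there were 4 (0.0303%) and 2 (0.0153%). At shares this small, 0 of 9 does not set these genes apart from the rest. Summing Oaz1 with Oaz1-ps and Amd1 with Amd2, chosen after the data were seen, changed no call without pairing. Srm and Sms, with counts from 76 per library, had the lowest counts of the 9 genes. Small differences between the LNA groups were not detectable with this number of mice, and not only in these 2 genes. Between the LNA groups, the SE by edgeR in total and polysome RNA was 0.25 and 0.24 for Srm and 0.18 and 0.23 for Sms. For Sat1, with higher counts, it was 0.22 and 0.26. Paired by mouse in GFP LNA livers, the SE of polysome over total RNA by edgeR was 0.087 for Srm and 0.148 for Sms. For Amd1 and Azin1, which had higher counts, it was 0.086 and 0.106. The part of sequencing depth in these errors was not tested.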
